A study of Mus musculus with 8 samples.

Results

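Spp1 encodes osteopontin, a secreted phosphoprotein, and Cd44 encodes one of its cell-surface receptors. Both were taken by gene name from the expression table of mammary epithelium, where each name has 1 row, so that 2 of 55933 genes are described here. They were chosen by their FPKM in control and Bmpr1a cKO mice, with the difference between these groups in view. Their levels and that difference are therefore given as a description, with no test.

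Osteopontin is found in milk, bone and many body fluids. It binds integrins through an RGD motif and can also engage CD44, and it is made by epithelial cells, by bone cells and by activated macrophages. CD44 is best known as the receptor for hyaluronan, a large sugar polymer of the extracellular matrix, and in the mammary gland it is expressed by basal and luminal cells, fibroblasts and leukocytes. Myoepithelial cells form the basal layer around the milk-producing luminal cells, and a secreted factor such as osteopontin could pass between these layers.

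RNA was sequenced from mammary epithelium of 4 control mice and 4 cKO mice, all of strain C57BL/6 and all at pregnancy day 14.5. The cKO mice carried K14-rtTA, teto-Cre and Bmpr1a fl/fl, so that doxycycline switches on Cre in keratin 14-expressing cells, which are the myoepithelial cells of this gland. Controls were littermates, named WT in the sample labels. According to the study's methods, doxycycline was given in the drinking water until samples were taken. Its start and the age of the mice in weeks are not given for these libraries in the sources used here. Neither are the exact alleles of the controls or their doxycycline treatment. The glands were digested with collagenase and hyaluronidase and red cells were lysed, with no sorting stated, so each library is bulk RNA of the cells that remained. In bulk RNA, fewer cells of a type and less RNA per cell cannot be told apart.

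The deposited values are FPKM, read counts scaled by gene length and by the size of the library, which allow levels of different genes to be compared. Between 16123108 and 19896988 reads per library lay on genes. Bmpr1a itself (chromosome 14, 34410734 to 34503341, GRCm38), the gene deleted in the cKO mice, was at 10.1 ± 1.28 FPKM in controls and 11.2 ± 1.01 in the libraries labelled cKO (SD, n = 4). It was not lower where the labels say it was deleted (log2 fold change 0.13, SE 0.10, limma adjusted p = 0.56). The gene totals do not separate transcripts with and without the deleted exons. The study reports the receptor in luminal as well as myoepithelial cells. Cre was directed to the myoepithelial cells, so the total of an unsorted library also counts cells not meant to lose the gene. The study also reports less receptor protein in epithelial cells of the knockout mice. Deletion in the sequenced mice was not tested here, and directions are given as the libraries are labelled. Replicates 1 and 2 of both groups also deviated from their group means in one way and replicates 3 and 4 in another, so values within these sets are given for the members. The B cell gene Cd79a was higher in control replicates 1 and 3 (6.06 and 13.97 FPKM) than in control replicates 2 and 4 (2.02 and 1.32).

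Spp1 (ENSMUSG00000029304) lies on the plus strand of chromosome 5 from 104435118 to 104441050, and Cd44 (ENSMUSG00000005087) on the minus strand of chromosome 2 from 102811141 to 102901665, in GRCm38 coordinates. The exons of Spp1 span 1648 bases and those of Cd44 span 6776. GENCODE vM21 lists 7 transcripts for Spp1 and 9 for Cd44, whose variable exons give many receptor forms, and the gene totals used here do not separate them. Spp1 overlaps Gm42793 on the same strand, which had 0 to 6 reads per library.

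The 250 bases before the RefSeq start of each gene are shown because the receptor targeted in the cKO mice signals through Smad proteins and because Slug and Stat5 act in mammary epithelium. Sequences are from RefSeq (GRCm38.p6), 5′ to 3′ on the strand of the gene, at chr5:104434861-104435110 for Spp1 and chr2:102901666-102901915 for Cd44. RefSeq lists 2 promoters for Spp1, and the one nearest the gene start was used, whose start lies a few bases before the GENCODE start given above. Capitals mark matches on either strand to GTCT (the Smad box) and CAGGTG (an E-box of the kind Slug binds).
Spp1: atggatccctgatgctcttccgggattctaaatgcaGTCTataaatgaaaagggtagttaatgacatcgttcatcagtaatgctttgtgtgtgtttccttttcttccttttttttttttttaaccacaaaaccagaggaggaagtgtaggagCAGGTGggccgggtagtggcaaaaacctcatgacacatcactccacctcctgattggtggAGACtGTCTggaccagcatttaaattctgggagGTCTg
Cd44: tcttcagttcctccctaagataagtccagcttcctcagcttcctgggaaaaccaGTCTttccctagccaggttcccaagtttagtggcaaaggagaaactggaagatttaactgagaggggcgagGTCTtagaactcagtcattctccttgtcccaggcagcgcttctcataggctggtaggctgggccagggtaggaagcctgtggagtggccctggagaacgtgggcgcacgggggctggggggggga

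The Spp1 window held 1 CAGGTG, at position -98 from the RefSeq start, and the Cd44 window held 0. CAGGTG occurred in 17.2% of 32851 RefSeq promoter windows of this length. GTCT or its reverse AGAC matched 4 times in the Spp1 window and 2 times in the Cd44 window, and 82.9% of all windows held it. Neither window held TTCNNNGAA, the core of a Stat5 site, which 7.02% of windows held, or GGCGCC, a GC-rich Smad sequence, which 9.59% held. No pair of these 4 motifs overlapped in either window. These are matches of letters only, and no binding was measured in these libraries.

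Spp1 was higher in every library labelled cKO than in every control. Its level was 13.8, 17.7, 25.6 and 33.0 FPKM in control replicates 1 to 4, and 64.8, 102, 127 and 128 FPKM in cKO replicates 1 to 4. The lowest cKO library stood well above the highest control, without overlap. Of all 15143 genes tested, 6.1% had every cKO library above every control and 4.6% had every cKO library below. The reads behind these levels ranged from 393 to 1022 in controls and from 2062 to 3914 in cKO, so counting error is small beside the spread between mice. Mean levels were 22.5 ± 8.57 and 105 ± 29.5 FPKM (SD, n = 4), which is 4.68-fold higher in cKO. On the log2(FPKM + 1) scale the difference was 2.20 (SE 0.29), the 4th largest in absolute size among the 15143 genes with a mean of at least 0.5 FPKM, of which 79 differed by at least 1 log2 unit. Spp1 stood above 84.9% of these genes by its control mean and above 97.2% by its cKO mean.

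Within each set of replicates the difference in Spp1 was similar. It was 2.31 log2 units for replicates 1 and 2 and 2.09 for replicates 3 and 4. Over 21 other ways of processing the data, including each library left out in turn, it lay between 2.003 and 2.42. The plot of both genes by library also shows that Spp1 was lower in replicates 1 and 2 than in replicates 3 and 4 of the same group.

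**Figure D1:**
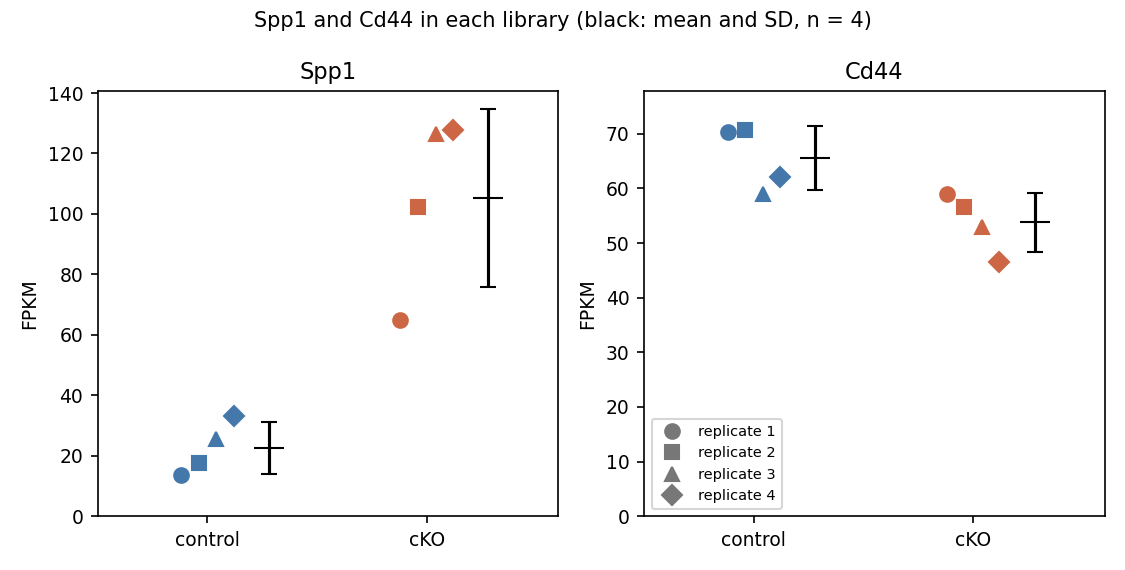
FPKM of Spp1 (left) and Cd44 (right) in each of 4 control and 4 cKO libraries, with the mean and SD of each group in black. The cKO libraries sit between 64.8 and 128 for Spp1, all above the controls, whereas for Cd44 they sit between 46.5 and 59.0 and meet the lowest control.

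Cd44 was more abundant than Spp1 in controls and less abundant in the libraries labelled cKO. Its level was 70.3, 70.7, 59.0 and 62.0 FPKM in control replicates 1 to 4. It was 59.0, 56.5, 53.0 and 46.5 FPKM in cKO replicates 1 to 4. Control replicate 3 and cKO replicate 1 had nearly the same value, 59.0425 against 59.0429, and this is the one place where the groups met. The means were 65.5 ± 5.89 and 53.8 ± 5.46 FPKM (SD, n = 4), on 5702 to 8304 reads per library. The difference was -0.28 log2 units (SE 0.09) and stood at place 2224 by absolute size among the genes tested. It was -0.28 in each set of replicates and between -0.34 and -0.22 under the other ways of processing. The ligand and its receptor thus lay on opposite sides of 0, with sizes far apart.

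The other receptors of osteopontin are integrins, and 8 of 9 listed genes were expressed highly enough to be tested. Across all 15143 genes, limma gave an adjusted p under 0.05 for 0.892% (0.588% higher and 0.304% lower in cKO) and an unadjusted p under 0.05, the threshold in the study's methods, for 16.4% (8.85% higher and 7.53% lower). Of the 8 integrin genes, 0 passed at adjusted p, while 3 passed at unadjusted p, 1 higher and 2 lower (5 in all when scaled by library totals). Their median log2 fold change was -0.08, against 0.000715 over all genes.

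Itgb3, the beta chain of the vitronectin receptor and a marker of luminal progenitors as CD61, was at 9.44, 9.38, 10.1 and 8.54 FPKM in controls and 8.02, 7.02, 6.49 and 5.29 in cKO. The groups did not overlap, which was the case for 10.7% of all genes tested, and limma gave a log2 fold change of -0.44 (SE 0.11, adjusted p = 0.101). Itga5, the alpha chain of a fibronectin receptor, was at 52.3 ± 2.62 FPKM in controls and 42.0 ± 2.98 in cKO, again without overlap (-0.31, SE 0.07, limma adjusted p = 0.0797). Itgb6, an epithelial beta chain that pairs with the alpha chain Itgav, was at 5.58 ± 0.501 and 7.06 ± 0.758 FPKM (0.29, SE 0.09, limma adjusted p = 0.149), and its groups overlapped.

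The chains shared by several osteopontin receptors were close to equal in both groups. Itgb1, the most abundant at 163 ± 6.38 and 167 ± 6.96 FPKM, differed by 0.03 log2 units (SE 0.06, limma adjusted p = 0.833). Itgav was at 33.7 ± 4.98 and 32.9 ± 4.11 FPKM (-0.03, SE 0.12, limma adjusted p = 0.925). Itgb5 had 20.5 ± 1.82 and 18.9 ± 1.03 FPKM (limma adjusted p = 0.512). The alpha chains Itga8 and Itga9, with means from 2.16 to 2.78 FPKM, did not pass either threshold, and Itga4, a leukocyte integrin chain, was too low to test at 0.526 and 0.379 FPKM.

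The mineral-tissue relatives of osteopontin were nearly absent. Ibsp and Mepe had 0 reads in all 8 libraries, Dspp had at most 3 and Dmp1 between 2 and 10. Spp1 was the one member of this family high enough to be tested.

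Among enzymes that act on osteopontin, 6 of 9 listed genes could be tested, 0 passed at adjusted p and 2 passed at unadjusted p, both higher. Mmp9, a matrix protease that cleaves osteopontin, was at 1.48, 2.77, 3.76 and 2.98 FPKM in controls and 3.996, 8.79, 4.59 and 10.1 in cKO. All cKO libraries lay above all controls, with a wide spread among them (log2 fold change 1.02, SE 0.29, limma adjusted p = 0.137). Fam20c, the Golgi kinase that phosphorylates osteopontin and casein, was at 4.18 ± 0.244 FPKM in controls and 5.59 ± 1.03 in cKO, without overlap (0.33, SE 0.11, limma adjusted p = 0.177).

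Mmp3, the most abundant protease of the list, had a mean of 189 ± 64.0 FPKM in controls and 133 ± 50.1 in cKO with overlapping groups (limma adjusted p = 0.429). The crosslinking enzyme Tgm2, the phosphatase Acp5 and the macrophage elastase Mmp12 did not pass either threshold (limma adjusted p = 0.568, 0.83 and 0.385). Mmp7, another protease of osteopontin, had 2 to 11 reads per library and was not tested. The genes for thrombin (F2) and plasminogen (Plg), made mainly by liver, had at most 6 and 3 reads.

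Hyaluronan, the main ligand of Cd44, is made at the cell surface by 3 synthases. Has2 was the most abundant, at 28.6 ± 4.50 FPKM in controls and 22.6 ± 4.54 in cKO (log2 fold change -0.34, SE 0.15, limma adjusted p = 0.309). Has1 was at 13.1 ± 4.53 and 9.94 ± 2.96 FPKM (-0.35, SE 0.24, limma adjusted p = 0.506) and Has3 at 0.608 ± 0.124 and 0.580 ± 0.102. Of the 10 genes for hyaluronan synthesis, breakdown and its other receptors, 8 could be tested and 0 passed by limma at adjusted or unadjusted p. Their median was -0.17, and 6 of the 8 had a lower mean in cKO. At unadjusted p 2 passed without cKO replicate 1, and 1 passed without control replicate 1, 2 or 4, with limma-voom and with library totals.

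Of 13 genes for partners, shedding and splicing of Cd44, all could be tested, 0 passed at adjusted p and 4 passed at unadjusted p, 2 higher and 2 lower, each without overlap. Cd74, the MHC class II invariant chain that forms a receptor for Mif with CD44, was at 425, 332, 479 and 386 FPKM in controls and 269, 254, 243 and 319 in cKO. It was lower in every cKO library (log2 fold change -0.57, SE 0.13, limma adjusted p = 0.0811). Its highest values were in control replicates 1 and 3, the libraries with more Cd79a, and without these libraries the difference was -0.41 (limma adjusted p = 0.419). The part of B cells in this difference was not tested. Srgn, a leukocyte proteoglycan core protein that binds CD44, was at 45.0 ± 4.92 and 35.3 ± 3.17 FPKM (-0.34, SE 0.09, limma adjusted p = 0.132), and without the same control libraries it no longer passed at unadjusted p (-0.25).

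Esrp1 and Esrp2 are the epithelial splicing factors that promote inclusion of the variable exons of Cd44, and both were higher at unadjusted p. Esrp1 was at 23.2 to 25.4 FPKM in controls and 28.6 to 31.6 in cKO (log2 fold change 0.29, SE 0.06, limma adjusted p = 0.0653). Esrp2 was at 11.3 ± 0.831 and 13.3 ± 0.503 FPKM (0.22, SE 0.07, limma adjusted p = 0.157). Esrp2 did not pass at unadjusted p under TPM, TPM without milk genes or library totals (0.16 to 0.19). It overlaps Nfatc3 (702 to 878 reads) on the other strand, and counting by strand is not stated. The shedding proteases Adam10, Adam17 and Mmp14, the linkers to the actin skeleton Ezr, Rdx, Msn and Nf2, and the ligand Mif did not pass either threshold.

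Nrg1, Hgf and Fgf2, which the study measured beside Spp1 by qRT-PCR in sorted myoepithelial cells, also did not pass in these unsorted libraries. Nrg1 was at 15.2 ± 2.05 and 13.1 ± 1.73 FPKM (limma adjusted p = 0.418), and Hgf and Fgf2 were under 1 FPKM on average in both groups. Over all lists without Spp1 and Cd44, 38 of 48 genes could be tested, and limma gave 0 at adjusted p, 9 at unadjusted p (5 higher and 4 lower) and a median log2 fold change of -0.04. The 9 are to be read beside the 16.4% of all genes that passed at this threshold, and 8 of the 38 had groups that did not overlap, beside 10.7% of all genes. With limma-voom on recovered reads 1 of the 38, Cd74, passed at adjusted p (adjusted p = 0.0425).

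**Figure D2:**
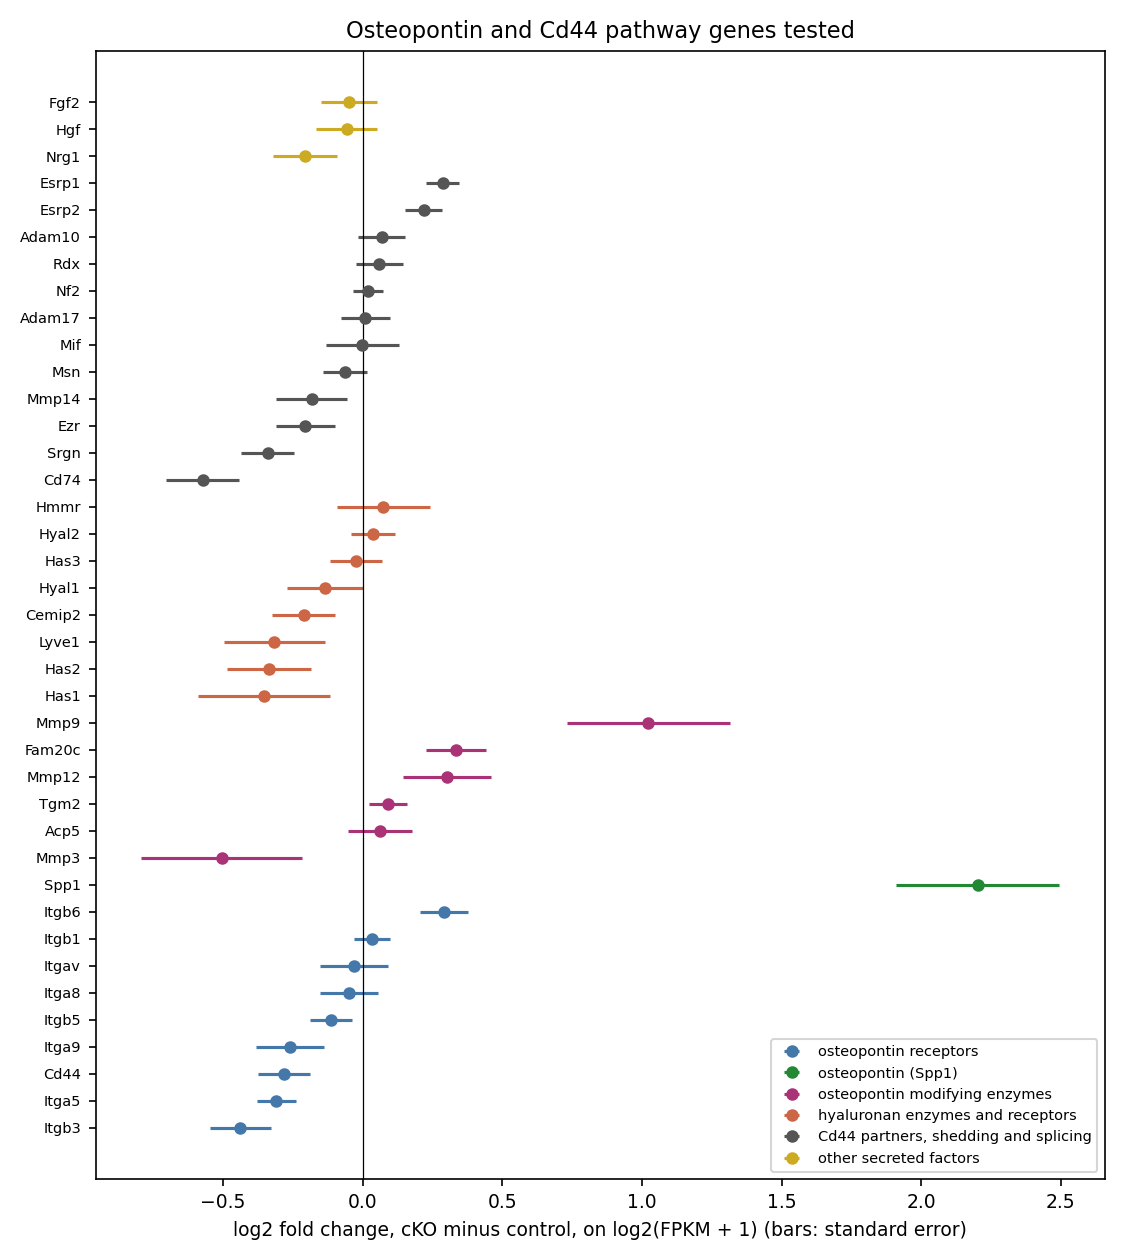
Log2 fold change, cKO minus control on log2(FPKM + 1), of Spp1, Cd44 and the tested genes of their lists that are reported here, coloured by role, with bars for the standard error. Spp1 at 2.20 stands apart from the others, of which Mmp9 at 1.02 comes next and Cd74 at -0.57 lies lowest.

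Osteopontin can come from milk-making luminal cells, myoepithelial cells or macrophages, so the markers of each were set beside it. Each score is the mean log2(FPKM + 1) of a list in a library. Of 10 milk genes, 4 rose at limma adjusted p and 9 passed at unadjusted p, all higher in cKO, with a median log2 fold change of 0.91. Csn1s2b, among these 9, averaged under 0.5 FPKM in controls. It reached the mean of 0.5 FPKM needed for testing only through its cKO libraries. Wap, a whey protein of late pregnancy, had a log2 fold change of 2.25 (SE 0.36, limma adjusted p = 0.034), close in size to that of Spp1, and Csn2, a casein, had 1.02 (SE 0.18, limma adjusted p = 0.0461). These adjusted calls, with those of Csn1s2a and Muc15, were lost in the least favourable alternative (limma adjusted p up to 0.200 for Wap, 0.327 for Csn2, 0.301 for Csn1s2a and 0.212 for Muc15), and without control replicate 4 limma called 0 of all genes at adjusted p and 2140 at unadjusted p. The milk score was 6.43 to 6.83 in controls and 7.40 to 8.12 in cKO. The score differed by 1.02 log2 units between the groups, less than the 2.20 of Spp1. Spp1 minus the milk score was -2.54 to -1.64 in controls and -1.56 to -0.41 in cKO, a mean difference of 1.18. The single milk genes differed by 0.45 (Xdh) to 2.25 (Wap). Wap alone reached the value of Spp1, and the next largest was Csn1s2a at 1.43.

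Macrophage markers went both ways. Of 16 listed genes 13 could be tested, 0 passed by limma at adjusted p, and 6 passed at unadjusted p, of which 5 were lower (Adgre1, Lyz2, C1qa, C1qb and C1qc) and 1, the engulfment receptor Mertk, was higher. Their median was -0.28. Their summed level was 977 to 1146 FPKM in controls and 871 to 1072 in cKO, most of it from Cd14 (729 ± 59.2 and 726 ± 34.4 FPKM), which mammary luminal cells also express. Trem2, a marker of lipid-laden macrophages, had at most 1 read in any library, and Cx3cr1 and Itgam were under 0.5 FPKM. The macrophage score was 3.11 to 3.39 in controls and 2.78 to 3.23 in cKO.

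Myoepithelial markers were divided. Of 11 genes, all could be tested, 0 passed by limma at adjusted p, and 4 passed at unadjusted p. Of these Krt14, Trp63 and Cdh3 were lower and the oxytocin receptor Oxtr was higher, and the list had a median of 0.02. The summed level was 2006 to 2725 FPKM in controls and 1827 to 2525 in cKO. The score was 5.48 to 5.78 in controls and 5.48 to 5.79 in cKO.

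**Figure D3:**
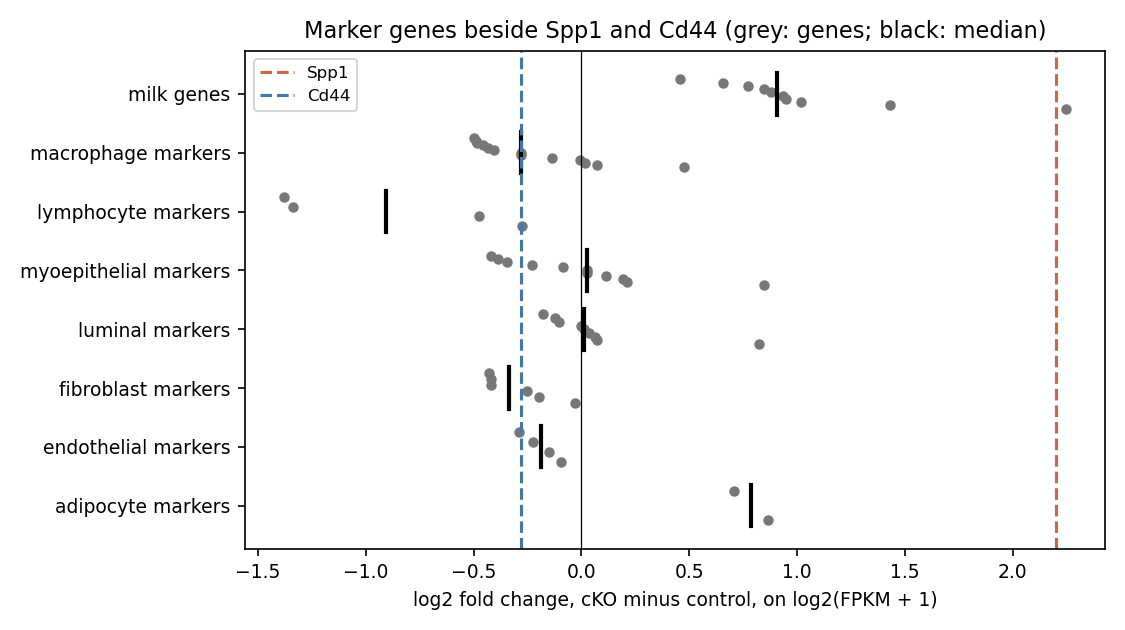
Log2 fold change, cKO minus control on log2(FPKM + 1), of each tested gene of 8 marker lists (grey points) with the list median (black bar), and of Spp1 and Cd44 (dashed lines). Milk genes lie to the right with a median of 0.91 and Wap beside Spp1, while the macrophage median of -0.28 falls on the line of Cd44.

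The remaining lists differed in direction. The 9 luminal markers had a median of 0.01, with Elf5, the regulator of alveolar fate, higher at unadjusted p (21.3 ± 3.91 and 38.5 ± 8.02 FPKM, limma adjusted p = 0.0591). The 6 fibroblast markers, from cells that express much Cd44, had a median of -0.33 and none passed by limma at adjusted or unadjusted p. The 4 endothelial markers had a median of -0.19, with Pecam1 lower at unadjusted p (limma adjusted p = 0.262). Of 8 lymphocyte markers, 4 could be tested, 0 passed at adjusted p and 2 were lower at unadjusted p, among them Cd79a (limma adjusted p = 0.229), with a summed level of 3.78 to 28.1 FPKM in controls and 1.74 to 4.13 in cKO, and Ncr1 and Klrb1c were at 0 in at least 1 library. Of 4 adipocyte markers, 2 could be tested and 1 passed at adjusted p, Cidec, which rose from 0.386 ± 0.0668 to 1.56 ± 0.549 FPKM (limma adjusted p = 0.0377, and up to 0.252 under the alternatives, so that this call was lost too). The part of these cell types in the levels of Spp1 and Cd44 was not tested.

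Within the groups, libraries with a higher myoepithelial score had more Spp1. Relations were computed on deviations from the group means over 8 libraries, with exact two-sided permutation within groups (576 arrangements) and adjustment over 7 relations. For the myoepithelial score, r was 0.956 (permutation p = 0.001736, the smallest these arrangements can give, adjusted p = 0.0122) and rho was 0.929 (permutation p = 0.00868, adjusted p = 0.0608). Without the pair of libraries farthest from the median score r was 0.853, and within replicate sets it was 0.823. The 576 arrangements exchange libraries across the replicate sets, by which both Spp1 and the score were split. Exchanged within sets only, the 16 arrangements gave a permutation p of 0.125, the smallest they allow. Under TPM r was 0.858, with a permutation adjusted p of 0.158. For the milk score, r was 0.469 and rho 0.333 (permutation p = 0.257 and 0.467, adjusted p = 0.36 and 0.545), with r of 0.324 without the pair of libraries farthest out. For the macrophage score, r was -0.407 and rho -0.357 (permutation p = 0.332 and 0.438, adjusted p = 0.387 and 0.545), with r of -0.657 without the pair farthest out. Within replicate sets r was -0.192 for the milk score and -0.402 for the macrophage score. The differences between these relations were not tested. Single genes of other lists followed Spp1 too. The median r with Spp1 was 0.814 for myoepithelial markers (8 of 8 above 0), 0.724 for luminal markers (5 of 6) and 0.616 for milk genes (7 of 9), beside 0.185 over the 7336 genes compared. A high median r was thus not particular to the myoepithelial list, and the cell source of Spp1 was not tested.

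**Figure D4:**
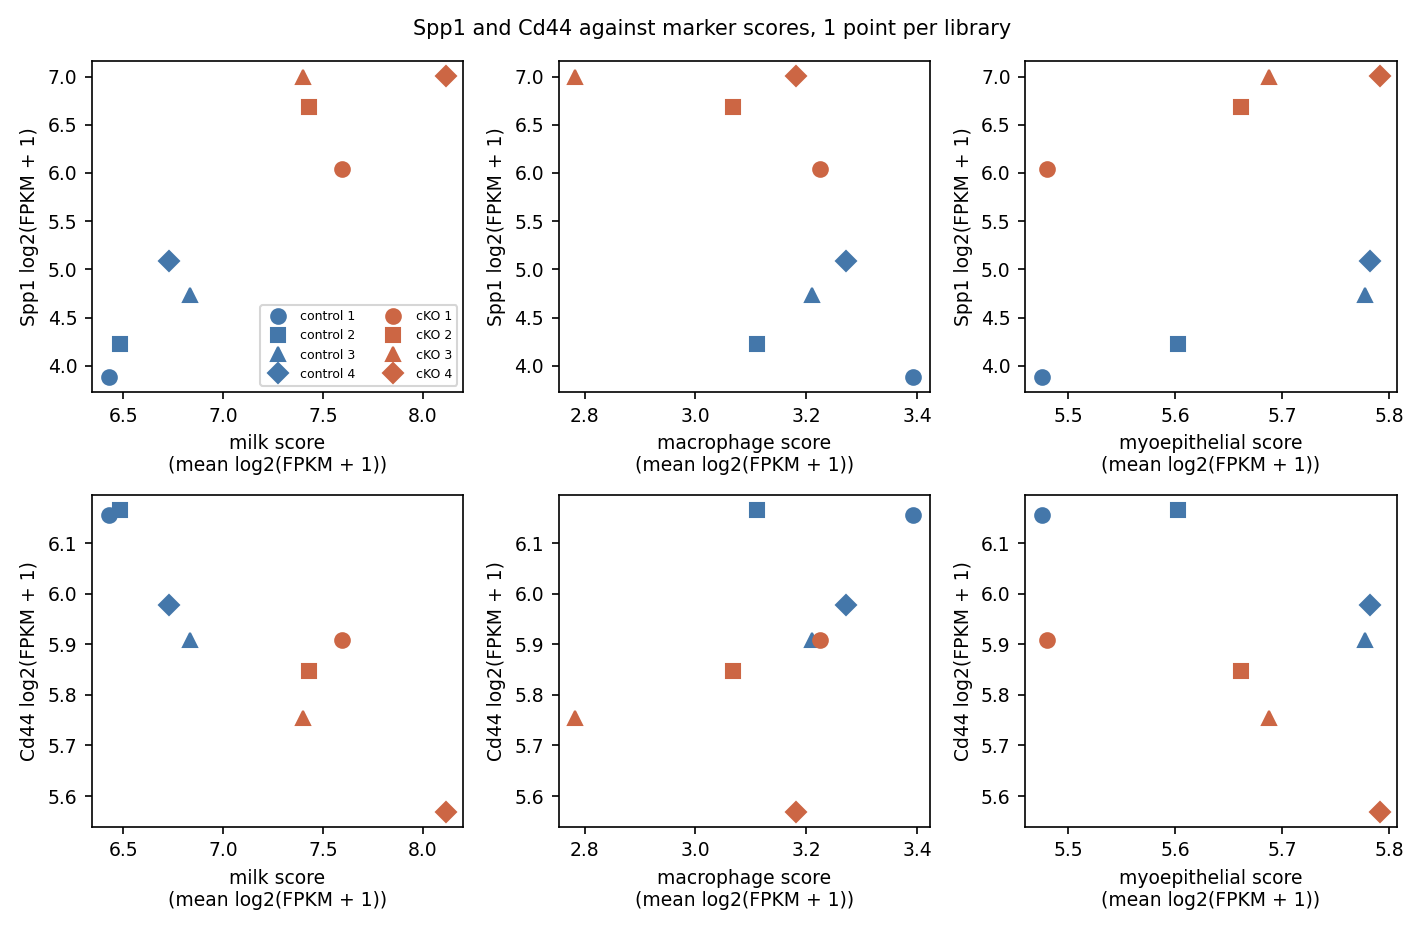
Log2(FPKM + 1) of Spp1 (upper row) and Cd44 (lower row) against the milk, macrophage and myoepithelial scores, 1 point per library, with colour for the group and shape for the replicate number. Spp1 climbs with the myoepithelial score within each group (r = 0.956 of deviations from group means), and the groups stand apart on the milk score but not on the other scores.

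None of the relations of Cd44 passed after adjustment with all 8 libraries. That with the myoepithelial score had a permutation adjusted p of 0.04865 without control replicate 1, and the same without control replicate 2. With the myoepithelial score, r was -0.890 and rho -0.905 (permutation p = 0.0208 and 0.0243, adjusted p = 0.0729 and 0.0648), and r was -0.947 without the pair of libraries farthest from the median and -0.567 within replicate sets. With the milk score, r was -0.835 and rho -0.524 (permutation p = 0.0347 and 0.271, adjusted p = 0.081 and 0.474), and the relation rested on the 2 libraries farthest out, without which r was -0.375. Within replicate sets it was -0.838, but exchanges within these sets only gave a permutation p of 0.75. With the macrophage score, r was 0.0455 and rho 0.214 (permutation p = 0.917 and 0.684, adjusted p = 0.917 and 0.684), with r of 0.387 without the pair farthest out and -0.584 within sets. Spp1 and Cd44 themselves had r of -0.803 and rho of -0.857 (permutation p = 0.0486 and 0.0278, adjusted p = 0.0851 and 0.0648), and r of -0.949 without the pair farthest out. Within replicate sets r of Spp1 with Cd44 was -0.0834, so that their relation rested on the split between these sets. By exchanges within sets, the permutation p of Cd44 was 0.5 with the myoepithelial score and 0.875 with the macrophage score. It was also 0.875 with Spp1. The median r with Cd44 over single genes was -0.929 for milk genes, -0.801 for luminal markers and -0.793 for myoepithelial markers, beside -0.226 over the 7336 genes compared.

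The genes whose deviations were most like those of Spp1, among 7336 genes with a mean of at least 5 FPKM over the 8 libraries, were Atp5j (r = 0.995), Mrpl48 (0.994), Ptms (0.990), Ift52 (0.987) and Ppia (0.986). Those most like Cd44 were Adam10 (0.990), Abi1 (0.989), Eea1 (0.989), Yes1 (0.985) and Nfkb1 (0.985). These correlations describe 8 libraries only and share their replicate sets. The 100 genes most like Spp1 had a median length of 2172.5 bases and the 100 most like Cd44 had 7102.5, against 3814 over the genes compared with Spp1. Longer genes deviated upward in replicates 1 and 2 and downward in replicates 3 and 4, with slopes per doubling of length from 0.00321 to 0.0207 and from -0.0315 to -0.003. With the length trend removed, r of Spp1 with the myoepithelial score was 0.953 (permutation p = 0.00347) and r of Spp1 with Cd44 was -0.729 (permutation p = 0.0747). The cause of the split between replicate sets was not tested.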

How the data were processed

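Mammary epithelial RNA of 4 control and 4 cKO mice was sequenced, and libraries were matched to groups by the names in the sample labels. According to the study's methods, reads were checked with FastQC, mapped to GRCm38 with Hisat2, and genes were called at p under 0.05 with no adjustment named. The submitters' processing notes also name StringTie 1.3.3b, featureCounts 1.5.0-p3 and the build mm9, but GENCODE vM21 holds 55394 of these genes, 99.68% of them at identical positions, so coordinates are GRCm38. The authors deposited FPKM per gene for 55933 genes, of which 360 have no gene name. These FPKM already contain median-of-ratios size factors, and multiplied by gene length and library size 100% of values gave whole reads (tolerance 0.01 of a read).

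Differences were tested with limma 3.58.1 in R 4.3.3 on log2(FPKM + 1), with empirical Bayes and trend and Benjamini-Hochberg adjustment over 15143 genes with a mean of at least 0.5 FPKM. A fold change on this scale understates the change of low genes. Each library is 1 mouse by the study's account. Python 3.11.15, numpy 2.4.6, pandas 2.3.3, scipy 1.17.1 and matplotlib 3.10.9 did the rest, and the test was tried on simulated data. The members and the 14 lists of 118 genes were chosen with earlier results of these data known. Named genes are Spp1, Cd44, Bmpr1a, pathway genes that passed at p under 0.05 or with a central role, and the 5 genes most like each member. Marker lists are given by counts, and their genes that passed or were singled out, such as Wap and Trem2, were named after their values were seen. Some genes of the lists enter the counts but are not reported here by name. Alternatives were other scalings (TPM, library totals), pseudocounts and filters, limma-voom on recovered reads, blocks, and each library left out. The omission of the libraries with more B cell RNA, the removal of the length trend and the exchange of libraries within replicate sets were added after the data were seen.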

Additional observations from a re-analysis of the deposited data

Results flagged for a closer look

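In 88 groups of 4 libraries, 1 value stood far from the others 5 times, where about 4.4 are due to chance. Itgb6 in control replicate 1 had 6.33 FPKM, and the remaining controls 5.29 to 5.37. Has1 was at 19.8 FPKM in control replicate 4, against 10.5 to 11.1. Lyve1, a hyaluronan receptor of lymphatic vessels, was at 0.733 FPKM in cKO replicate 3, against 1.52 to 1.61. Msn was at 55.9 FPKM in control replicate 1, against 49.4 to 50.3, and at 55.9 FPKM in cKO replicate 2, against 46.2 to 47.8. The values of Spp1 and Cd44 themselves were not among these.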

How the results depend on the processing

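The log2 differences of Spp1 and Cd44 kept their direction under all 21 alternatives. The count of genes at adjusted p under 0.05 (135) was 10 with no filter on low values, 218 with the length trend removed, 252 with limma-voom, 442 with replicate sets as a block and 2 without the control libraries with more B cell RNA, and 0 to 78 with 1 library left out. The count at unadjusted p (2480) was 1542 without those libraries and 2042 to 2514 with 1 library left out. Its split of 1340 higher and 1140 lower was 788 and 1656 under TPM, 985 and 1380 under TPM without milk genes and 863 and 1793 under library totals. Of the 38 pathway genes, 1 passed at adjusted p under TPM, TPM without milk genes, library totals and limma-voom (Cd74) and under the length trend and replicate sets (Esrp1), and 0 with any 1 library left out. Those at unadjusted p (9) were 9 to 13 with 1 library left out.

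Same-numbered libraries of the groups deviated with r as low as 0.0797, so numbers were not taken as pairs. With a replicate block, 50 genes passed at adjusted p, and with the block in limma-voom 680, of which 6 were pathway genes (15 at unadjusted p, beside 3389 of all 15143 genes). Of the hyaluronan genes, 2 passed at unadjusted p with the replicate block or with sets as a block, and 3 with the block in limma-voom.

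Under TPM the relation of Cd44 was -0.667 with the milk score, -0.552 with the myoepithelial score and -0.753 with Spp1, and under TPM without milk genes -0.672, -0.600 and -0.762, none under p of 0.05 by permutation. Cd44 with Spp1 was -0.729 with the length trend removed. With 1 library left out, Cd44 ranged from -0.937 to -0.659 with milk, -0.928 to -0.860 with myoepithelial, -0.221 to 0.402 with macrophage (-0.121, -0.00617 and -0.221 were reversed) and -0.850 to -0.737 with Spp1. By permutation p before adjustment, Cd44 stayed under 0.05 with milk without cKO replicate 1 or 3 only, with Spp1 without control replicate 2 or 3 only, and with myoepithelial except without cKO replicate 3 or 4. The cause was not tested. Spp1 with the myoepithelial score was 0.823 to 0.973 under all 13 alternatives, but its adjusted p of 0.0122 was 0.158 under TPM, 0.146 under TPM without milk genes and 0.0973 without cKO replicate 1. With libraries exchanged within replicate sets only, where no p under 0.125 is possible, Spp1 had r of -0.192 with milk (reversed), -0.402 with macrophage and 0.823 with myoepithelial, and Cd44 had -0.838, -0.584 (reversed) and -0.567, and -0.0834 with Spp1. By these exchanges the permutation p was 0.125 for Spp1 with myoepithelial and at least 0.5 for every other relation.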
